A study of Mus musculus with 6 samples.

Results

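The genes described here are 28 genes of cholesterol and fatty acid synthesis, chosen by name and found once each among the 49671 genes of the deposited tables. They comprise 6 genes of the mevalonate steps, 11 of the squalene and sterol steps, 5 that control the sterol regulatory element binding proteins (SREBPs), 1 of sterol transport, and 5 of fatty acid synthesis. RNA-Seq libraries came from muscle stem cells (MuSCs) of 6 female C57BL/6 mice aged 4 to 6 months, 3 treated with resolvin D1 (RvD1), a lipid mediator made from docosahexaenoic acid, and 3 with vehicle. All 6 mice had received intramuscular BaCl2, which injures myofibers, in both tibialis anterior (TA) muscles, and cells were taken on day 3. RvD1 was injected i.p. every day at 100 ng over 72 hours, and vehicle was saline with 0.1% ethanol. The 2 TA muscles of a mouse were pooled into 1 library, and uninjured cells were not analysed here. The comparison asks whether systemic RvD1 changed expression in the stem cells of injured muscle.

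Cells build cholesterol from acetyl-CoA by way of mevalonate, farnesyl diphosphate, squalene, and lanosterol, and build saturated and monounsaturated fatty acids from the same acetyl-CoA. SREBP2 (Srebf2) mainly drives the cholesterol genes and SREBP1 (Srebf1) mainly the fatty acid genes. Both precursors are escorted out of the endoplasmic reticulum by SCAP when sterols are low, and are held there by the INSIG proteins when sterols are high. Proliferating myoblasts need both products for new membrane.

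Cells were gated on the stem cell surface proteins CXCR4 and β1-integrin after exclusion of blood, endothelial, and Sca-1 cells (Ter119, CD45, CD11b, and, by the labels alone, CD31). Total expected counts lay between 17962025 and 28149176 with RvD1 and between 16148026 and 18755643 with vehicle. The summed level of 8 muscle stem cell and myoblast markers was 2628 to 2961 TPM (a level scaled for transcript length and library size) with RvD1 and 2458 to 2682 TPM with vehicle, and each of the 8 was present in every library. Among 6 adipocyte markers, Cidec and Lep were at 0 in every library, and Adipoq and Plin1 did not exceed 0.10 TPM. The other members of that list, Fabp4 at 4.53 to 29.6 TPM and Lpl at 42.5 to 62.6 TPM, were present in every library and made up its sum of 56.9 to 73.0 TPM with RvD1 and 51.0 to 73.7 TPM with vehicle. Summed levels of 12 leukocyte markers were 39.7 to 64.1 TPM with RvD1 and 57.5 to 102 TPM with vehicle. For 8 endothelial markers they were 9.76 to 16.5 TPM and 7.02 to 21.5 TPM, and for 5 markers of differentiating myocytes 1482 to 2568 TPM and 1511 to 1852 TPM. RvD1 replicate 1 stood apart from the other libraries. It held the highest level of 30.6% and the lowest level of 29.5% of the 14494 genes tested, and in it 8 proliferation markers summed to 1202 TPM, against 1535 to 1731 TPM elsewhere. In the same library, 7 fibro-adipogenic markers summed to 914 TPM, against 337 to 553 TPM elsewhere, and 6 Schwann cell markers to 161 TPM, against 65.9 to 94.6 TPM. Log2 fold changes that turned sign without this library are given with and without it.

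RefSeq promoter windows on GRCm38.p6, which run from 250 bases before to 50 bases after a transcription start, were matched for 23 of the 28 genes by symbol. No window was matched for Fdps, Fdft1, Sqle, Stard4, and Scd1. The windows show how often each motif occurs in the genes matched, and sequence was not used to choose the genes. A CCAAT box (letters CCAAT, bound by NF-Y, a partner of SREBPs at sterol genes) occurred in the windows of 20 of the 23 genes (87.0%), against 43.1% of the 10178 genes that were tested for expression and have a window, and 41.1% of all 27025 genes with one. The GC box (GGGCGG, bound by Sp1) occurred in 19 of the 23 (82.6%), against 69.0% of the genes tested. The sterol regulatory element in its classical spelling (TCACNCCAC, where N is any base) occurred in 1 of the 23 (4.35%), Hmgcs1, against 1.41% of the genes tested. The E-box CACGTG occurred in 5 of the 23 (21.7%), against 11.7%. Both strands were searched, a gene counts once whichever of its windows holds the letters, and a missing match says only that these letters are not in the window. Stretches upstream of the start are shown for Hmgcs1, the gene with the sterol element, and for genes with a CCAAT box from several classes, in the gene's own direction, with every match to these motifs in capitals (ATTGG is CCAAT on the other strand).
Hmgcs1, chr13:119690184-119690252, plus strand, sterol element: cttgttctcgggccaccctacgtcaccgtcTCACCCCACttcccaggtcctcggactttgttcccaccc
Hmgcs1, chr13:119690276-119690340, plus strand, CCAAT box and GC box: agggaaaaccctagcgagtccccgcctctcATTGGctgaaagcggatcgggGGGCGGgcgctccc
Msmo1, chr8:64733599-64733663, minus strand, CCAAT box beside GC boxes: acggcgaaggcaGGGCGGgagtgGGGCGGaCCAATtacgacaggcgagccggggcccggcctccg
Srebf2, chr15:82147104-82147168, plus strand, CCAAT box: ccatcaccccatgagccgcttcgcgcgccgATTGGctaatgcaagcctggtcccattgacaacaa
Insig2, chr1:121332590-121332648, minus strand, CCAAT boxes: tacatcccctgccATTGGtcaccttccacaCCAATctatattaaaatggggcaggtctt
Fasn, chr11:120824572-120824636, minus strand, CCAAT boxes that overlap on opposite strands: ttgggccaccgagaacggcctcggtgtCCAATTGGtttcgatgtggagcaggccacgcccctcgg

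All 28 genes were expressed in MuSCs at day 3, with mean levels over the 6 libraries from 3.63 TPM for Tm7sf2 to 147 TPM for Fdps and a median of 32.8 TPM. Fdps exceeded 94.9% of the 26811 genes detected in any library, and Tm7sf2 exceeded 59.9%. Fdps, which makes farnesyl diphosphate, was followed by Srebf2 (129 TPM) and by Acly (80.3 TPM), which supplies cytosolic acetyl-CoA. Idi1, Msmo1, Hmgcs1, and Sqle came next, between 59.8 and 70.5 TPM. At the low end stood Mvd (9.99 TPM), Scd1 (8.25 TPM), Acaca (8.13 TPM), and Tm7sf2. In this order, 23 of the 27 pairs of neighbours had overlapping ranges over the 6 libraries. The ranges were apart between Srebf2 and Acly, between Cyp51 and Scap, between Srebf1 and Elovl6, and between Acaca and Tm7sf2. RSEM divides reads among genes of like sequence, and 14 of the 28 genes share no exact stretch of 76 bases, the read length, with a transcript of another gene in GENCODE M21. More than 20% of such stretches were shared for 4 genes, Acaca (26.6%), Idi1 (23.5%), Fdps (23.4%), and Fdft1 (21.6%), whose levels are less certain for that reason.

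**Figure D1:**
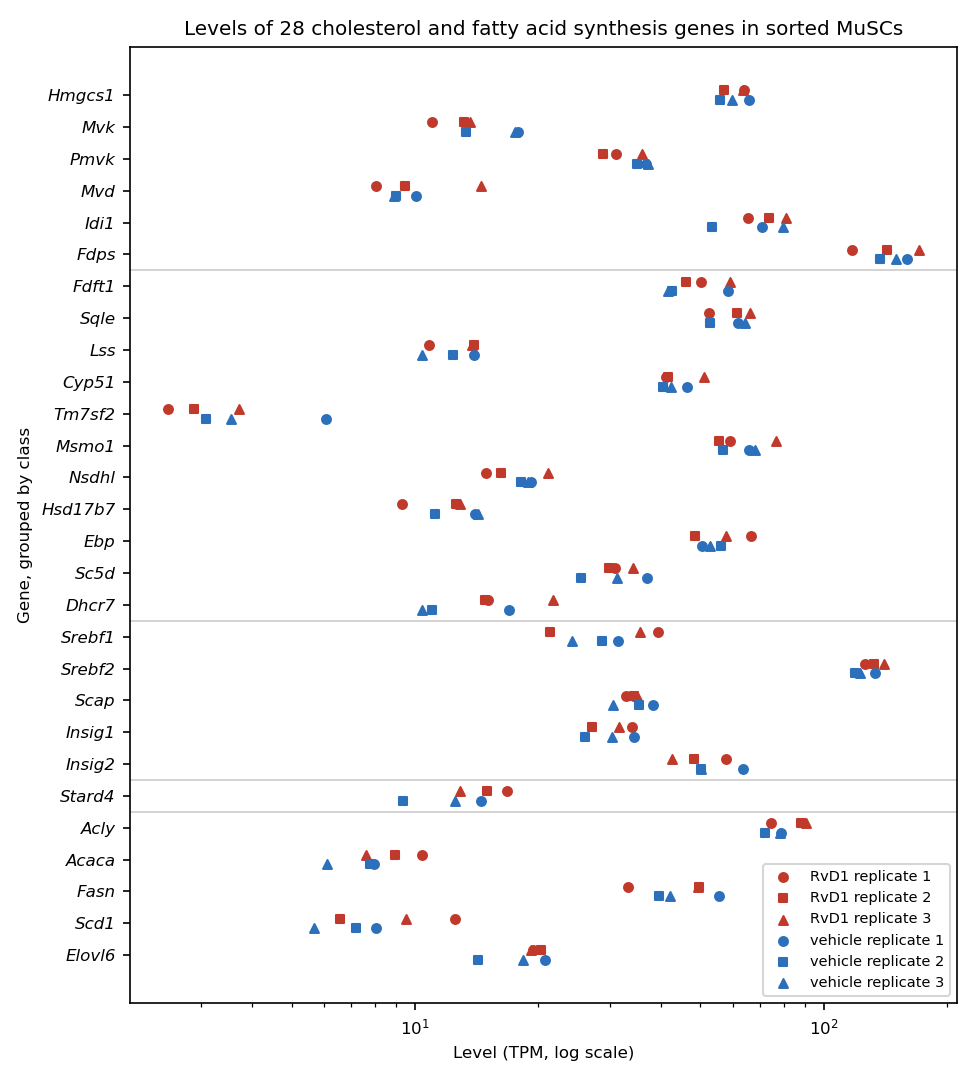
Level of each of the 28 genes in TPM (log scale) in the 3 RvD1 libraries (red) and the 3 vehicle libraries (blue), with 1 point per mouse, a marker shape per replicate number, and gray lines between classes. Red and blue points interleave for most genes, and gene means run from 3.63 TPM for Tm7sf2 to 147 TPM for Fdps.

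No gene of the 28 was called higher or lower with RvD1. In edgeR's quasi-likelihood test on the whole table, 0 of the 28 had a Benjamini-Hochberg adjusted p under 0.05, where 0% of the 14494 genes tested did, and the smallest adjusted p of the 28 was 0.971. At an unadjusted p under 0.05 there were again 0 of 28, where 3.47% of all genes passed, 1.83% higher and 1.64% lower with RvD1. DESeq2 and limma-voom also gave 0 by either count. Limma-voom after removal of 1 surrogate variable gave 0 by adjusted p and 2 by unadjusted p, Acly and Acaca. That fit also kept low counts and scaled by library totals alone. It spent no degree of freedom on the variable removed, so its p values lean low. Other fits also brought single genes under 0.05. With library totals alone, Acaca had an edgeR unadjusted p = 0.0499 (adjusted p = 0.943). On the log2(FPKM + 1) scale, Mvk had a limma unadjusted p = 0.0445 (adjusted p = 0.954). Nsdhl was at −0.34 without RvD1 replicate 3 (edgeR unadjusted p = 0.0329, adjusted p = 0.788), and Scd1 at 0.49 without RvD1 replicate 2 (edgeR unadjusted p = 0.0209, adjusted p = 0.725). Log2 fold changes, RvD1 over vehicle, ranged from −0.27 for Mvk to 0.31 for Scd1, with a median of −0.046 against 0.014 for all genes tested. The 95% interval of each single gene lay within a 2-fold change in both directions for all 28, and within a 1.5-fold change for 24, taken gene by gene. Positive log2 fold changes numbered 10 of 28, where 53.5% of all genes were positive. That number rested on single libraries, since it fell to 6 without RvD1 replicate 3 and 7 without vehicle replicate 2, and rose to 17 without vehicle replicate 1. It also followed the scale, with 13 of 28 positive when counts were scaled by library totals alone and 18 of 28 on the log2(TPM + 1) scale. In counts scaled to library size, the groups did not overlap for 2 of the 28 (9.62% of all genes), Acaca above vehicle (4.8% of all genes) and Pmvk below it (4.83%). In TPM, the groups overlapped for both genes. In bulk RNA, a smaller share of cells that express a gene and less RNA per cell cannot be told apart.

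**Figure D2:**
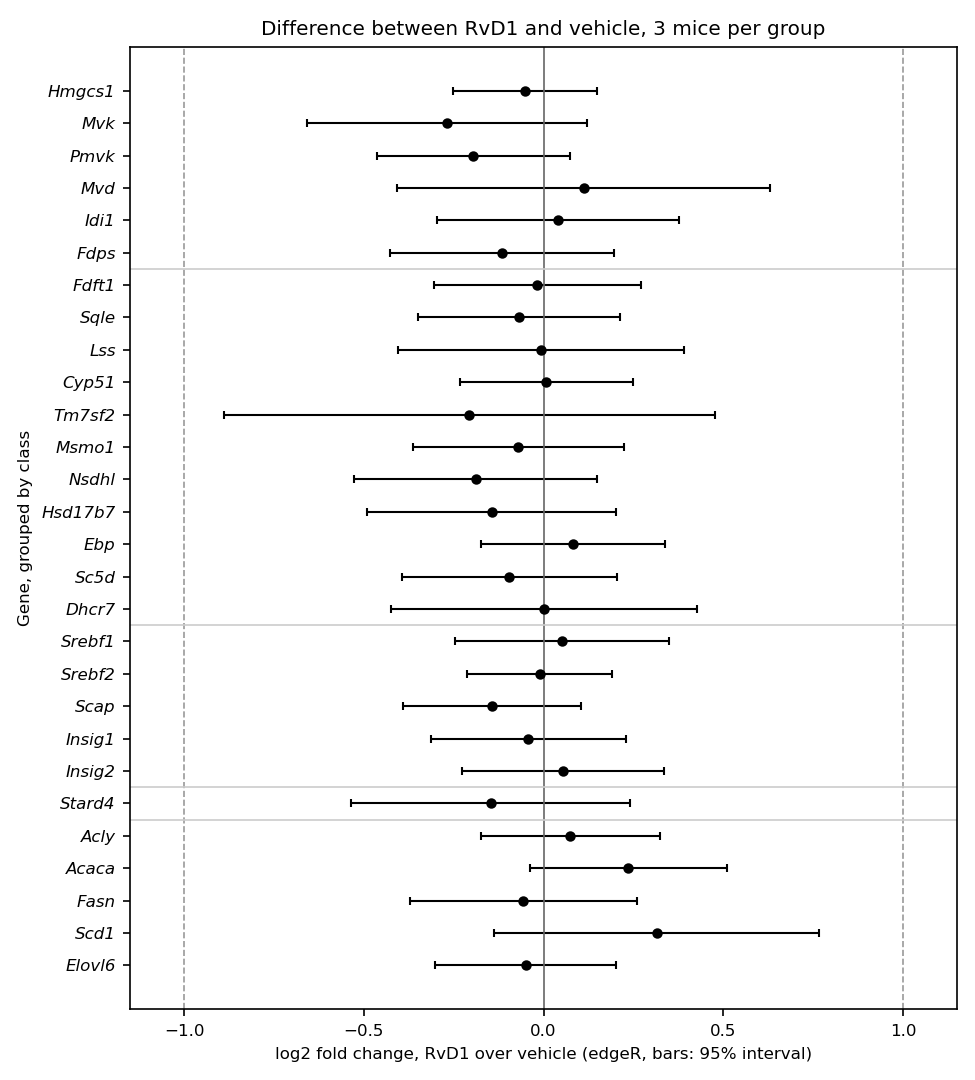
Log2 fold change of each gene, RvD1 over vehicle, from edgeR with 3 mice per group, with bars for the 95% interval and dashed lines at a 2-fold change. Every bar lies between the dashed lines and crosses 0, from −0.27 for Mvk to 0.31 for Scd1.

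Of the 6 mevalonate genes, 2 had a positive and 4 a negative log2 fold change, with a median of −0.084 and 0 past the test. Hmgcs1, the synthase that makes HMG-CoA, had the smallest standard error of the 28. Its counts scaled to library size (CPM), in the order of replicates 1, 2, and 3 used throughout, were 121, 116, and 125 with RvD1 and 133, 118, and 126 with vehicle. Its groups overlapped, and its log2 fold change was −0.053 (standard error 0.088). Pmvk (chromosome 3, 89454541 to 89469013), the kinase that makes mevalonate diphosphate, had 19.6, 19.0, and 21.7 CPM with RvD1 and 22.9, 22.5, and 23.6 CPM with vehicle. Each RvD1 library thus lay below each vehicle library in CPM, but the log2 fold change of −0.20 (standard error 0.12) did not pass (edgeR unadjusted p = 0.133, adjusted p = 0.971). In TPM the groups overlapped, with Pmvk at 31.06, 28.9, and 36.05 with RvD1 and 36.83, 34.91, and 37.17 with vehicle. Mvk, the kinase before it (chromosome 5, 114444269 to 114460591), had 9.24, 11.8, and 11.6 CPM with RvD1 and 14.0, 11.4, and 14.0 CPM with vehicle. Its groups overlapped through vehicle replicate 2, and its log2 fold change was −0.27 (standard error 0.17, edgeR adjusted p = 0.971), the lowest of the 28. Without RvD1 replicate 1 it was −0.16, and Pmvk at −0.18 was then lowest. Fdps (chromosome 3, 89093588 to 89101959), whose exons overlap those of Gm43738 on the same strand, was at 118, 143, and 172 TPM with RvD1 and 160, 138, and 150 TPM with vehicle. The 3 RvD1 mice spanned the whole vehicle range, with RvD1 replicate 1 lowest and replicate 3 highest of all 6. Its log2 fold change of −0.12 (standard error 0.14) became 0.023 without RvD1 replicate 1. Mvd, the decarboxylase that yields isopentenyl diphosphate, showed the widest spread within RvD1, with 7.97, 9.95, and 14.6 CPM against 10.5, 9.83, and 9.72 CPM with vehicle. Its log2 fold change of 0.11 was 0.29 without RvD1 replicate 1 and −0.16 without RvD1 replicate 3, none of them past the test. Idi1, the isomerase that follows, averaged 73.3 ± 7.78 TPM (SD, n = 3) under RvD1 and 67.8 ± 13.3 TPM under vehicle.

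Of the 11 squalene and sterol genes, 3 had a positive and 8 a negative log2 fold change, with a median of −0.068, a range from −0.21 for Tm7sf2 to 0.081 for Ebp, and 0 past the test. Sqle (chromosome 15, 59315077 to 59331192), squalene epoxidase and a rate-limiting enzyme of the pathway, was at 52.6, 61.3, and 66.0 TPM with RvD1 and 61.9, 52.9, and 64.1 TPM with vehicle. The groups overlapped fully (log2 fold change −0.068, standard error 0.12). Fdft1, the squalene synthase, averaged 51.8 ± 6.70 TPM (SD, n = 3) under RvD1 and 47.6 ± 9.46 TPM under vehicle (log2 fold change −0.017, standard error 0.13), and exons of Ctsb overlap its own on the opposite strand. Lss, which closes the sterol rings, averaged 25.7 ± 5.14 CPM (SD, n = 3) under RvD1 and 25.8 ± 3.61 CPM under vehicle, and its log2 fold change was −0.0067 (standard error 0.17). The demethylation enzymes Cyp51, Msmo1, and Nsdhl, and the reductase Hsd17b7, had log2 fold changes of 0.0072, −0.070, −0.19, and −0.14. Ebp, the sterol isomerase (chromosome X, 8185329 to 8193512), had the highest value of the class, with 34.3, 29.7, and 34.1 CPM with RvD1 and 29.2, 32.9, and 30.6 CPM with vehicle, which overlap. Sc5d and Dhcr7, which act late in the route, had log2 fold changes of −0.095 (standard error 0.13) and 0.0013 (standard error 0.19). Tm7sf2, a sterol C14-reductase, was the lowest gene of all. It had 44 to 62 counts per library, and 2.49, 2.89, and 3.71 TPM with RvD1 against 6.08, 3.08, and 3.55 TPM with vehicle, of which only vehicle replicate 1 lay above every RvD1 library. Its interval was the widest downward, from −0.89 to 0.48 on the log2 scale.

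The 5 genes of SREBP control had log2 fold changes between −0.14 and 0.054, 2 of them positive and 3 negative, with all 5 intervals within a 1.5-fold change and 0 past the test. Srebf2 (chromosome 15, 82147181 to 82205379) was at 126, 133, and 140 TPM with RvD1 and 134, 120, and 123 TPM with vehicle. The groups overlapped, and the log2 fold change was −0.011 with a 95% interval from −0.21 to 0.19. Srebf1 (chromosome 11, 60199089 to 60222581), whose exons overlap Rai1 on the opposite strand, was at 39.4, 21.4, and 35.6 TPM with RvD1 and 31.4, 28.7, and 24.3 TPM with vehicle. The RvD1 mice held both the highest and the lowest level, and the log2 fold change was 0.051 (standard error 0.13). Srebf2 exceeded Srebf1 in each library, by a ratio of 3.20 to 6.21 in TPM. Scap (chromosome 9, 110333288 to 110384950) was at 32.9, 34.4, and 34.9 TPM with RvD1 and 38.3, 35.4, and 30.5 TPM with vehicle (log2 fold change −0.14, standard error 0.11). Insig1 (chromosome 5, 28071363 to 28078662), itself an SREBP target, had 51.5, 43.6, and 49.3 CPM with RvD1 and 54.6, 43.8, and 50.2 CPM with vehicle, so the ranges of the groups nearly coincided (log2 fold change −0.042, standard error 0.12). Insig2 (chromosome 1, 121304353 to 121332589), the less sterol-dependent form, had 84.0, 67.8, and 64.3 CPM with RvD1 and 73.8, 70.6, and 63.8 CPM with vehicle, which overlap (log2 fold change 0.054, standard error 0.12, and −0.070 without RvD1 replicate 1). The ratio of Insig2 to Insig1 in TPM was 1.60 ± 0.226 (SD, n = 3) with RvD1 and 1.80 ± 0.141 with vehicle, ranges that overlap. The order of the means was the opposite for the same ratio in CPM, which is not scaled for length, at 1.63, 1.55, and 1.31 with RvD1 and 1.35, 1.61, and 1.27 with vehicle.

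Of the 5 fatty acid genes, 3 had a positive and 2 a negative log2 fold change, with a median of 0.075 and 0 past the test. Acaca (chromosome 11, 84129672 to 84401651), the acetyl-CoA carboxylase that commits carbon to fatty acids, had 36.1, 41.5, and 38.0 CPM with RvD1 and 34.7, 34.8, and 28.7 CPM with vehicle. Each RvD1 library lay above each vehicle library, and the log2 fold change was 0.24 with a 95% interval from −0.037 to 0.51 (edgeR unadjusted p = 0.0826, the smallest of the 28, adjusted p = 0.971). It was 0.15 without vehicle replicate 3, the lowest of the 6 libraries. In TPM, where Acaca was at 10.4, 8.96, and 7.61 with RvD1 and 7.94, 7.79, and 6.10 with vehicle, the groups overlapped. Scd1 (chromosome 19, 44394455 to 44407879), the desaturase that makes oleate, was at 12.5, 6.55, and 9.53 TPM with RvD1 and 8.04, 7.19, and 5.67 TPM with vehicle. Its log2 fold change of 0.31 (standard error 0.20, edgeR adjusted p = 0.971) was the highest of the 28, and it was 0.14 without RvD1 replicate 1, 0.49 without RvD1 replicate 2, and 0.20 without vehicle replicate 3. Scd2, the other desaturase listed here, was at 88.6 to 151 TPM with RvD1 and 82.7 to 116 TPM with vehicle, and exceeded Scd1 by a ratio of 11.5 to 16.6 in each library. Fasn (chromosome 11, 120805846 to 120824547), the fatty acid synthase, was at 33.3, 49.5, and 49.4 TPM with RvD1 and 55.4, 39.6, and 42.1 TPM with vehicle. RvD1 replicate 1 was the lowest of the 6, the other two RvD1 libraries lay within the vehicle range, and the log2 fold change was −0.056 (standard error 0.14). Acly averaged 84.4 ± 8.87 TPM (SD, n = 3) under RvD1 and 76.2 ± 3.69 TPM under vehicle (log2 fold change 0.075, standard error 0.11). For Elovl6, which elongates palmitate, the log2 fold change was −0.050 (standard error 0.11).

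Stard4, a carrier that moves cholesterol between membranes, had 15.8, 15.8, and 13.8 CPM with RvD1 and 20.1, 13.6, and 16.6 CPM with vehicle, and its log2 fold change was −0.15 (standard error 0.17). Its TPM pointed the other way, averaging 14.9 ± 1.95 (SD, n = 3) under RvD1 and 12.1 ± 2.59 under vehicle. Counts and TPM gave opposite signs of the difference in group means for 11 of the 28 genes. For 8 of these the log2 ratio of means was higher by 0.072 to 0.14 in TPM than in CPM. The median log2 fold change of all genes tested was also higher on the log2(TPM + 1) scale, at 0.077, than in edgeR, at 0.014. Elovl6 and Stard4 moved up by 0.20 and 0.44 from CPM to TPM, and Insig2 moved by −0.19. TPM divides by the effective length of the isoforms that RSEM assigns, and that length was recovered for each library from the deposited counts and FPKM. It varied by more than 1.2-fold among the 6 libraries for 9 of the 27 genes with enough counts (33.3%), where 22.7% of all 10594 such genes did so. The implied length of Stard4 was 1597, 1698, and 1788 bases with RvD1 and 2242, 2248, and 2042 bases with vehicle, with no overlap. For Dhcr7, the last enzyme of one branch to cholesterol, it was 1778, 1593, and 1571 bases with RvD1 and 1895, 1931, and 2533 bases with vehicle, again with no overlap. Its counts averaged 17.0 ± 3.06 CPM (SD, n = 3) under RvD1 and 16.9 ± 3.08 CPM under vehicle, while its TPM averaged 17.3 ± 3.97 and 12.8 ± 3.66. Insig2 moved the opposite way, with 2482, 2263, and 2525 bases with RvD1 and 1885, 2182, and 1962 bases with vehicle. With Mvk and Pmvk, both longer with RvD1, the implied lengths were apart between groups by more than 5% for 5 of the 27 genes with enough counts (18.5%), where 5.42% of all such genes were. GENCODE M21 lists 13 transcripts for Dhcr7, 14 for Insig2, and 4 for Stard4, and how reads were divided among these was not tested.

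**Figure D3:**
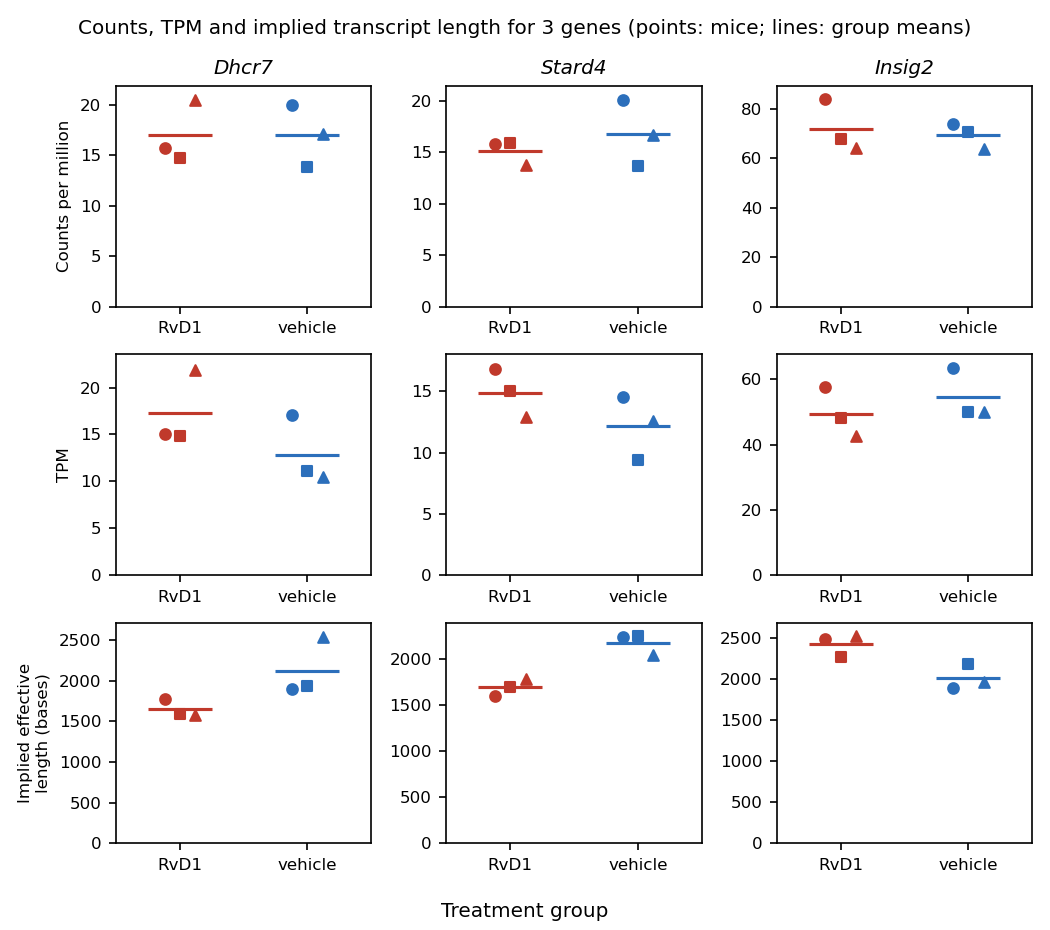
CPM (top), TPM (middle), and implied effective length in bases (bottom) of Dhcr7, Stard4, and Insig2, with 1 point per mouse, marker shapes for replicates 1 (circle), 2 (square), and 3 (triangle), and lines at the group means. CPM overlaps between groups, while implied lengths are shorter with RvD1 for Dhcr7 and Stard4 and longer with RvD1 for Insig2, with no overlap.

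In each library, most of the cholesterol genes lay on the same side of their own means, in an order that the treatment groups did not follow. The 17 enzymes of the mevalonate and sterol steps were taken as 1 set and each was centred on its mean log2 CPM over the 6 libraries. This view was chosen after the values were seen and carries no test. In RvD1 replicate 1, 1 of the 17, Ebp, lay above its own mean, where 51.8% of all genes tested did, and 9 of the 17 had their lowest level there, where 29.5% of all genes did. In RvD1 replicate 3, 16 of the 17 lay above their mean, against 51.4% of all genes, and in vehicle replicate 1 it was 16 of 17, against 52.6%. RvD1 replicate 2 and vehicle replicate 2 each had 4 of 17 above, against 51.2% and 50.5% of all genes. Vehicle replicate 3 had 12 of 17, against 50%. The mean deviation of the 17 was −0.20, −0.060, and 0.16 on the log2 scale for RvD1 by replicate number, against 0.12, −0.093, and 0.084 for vehicle. The RvD1 group thus held both the lowest and the highest library. The SREBP control genes were mixed. All 5 lay above their means in vehicle replicate 1, and Srebf2, like the enzymes, was lowest in RvD1 replicate 1 and highest in RvD1 replicate 3. In RvD1 replicate 1, Srebf1, Insig1, and Insig2 lay 0.17, 0.081, and 0.26 above their means, while Srebf2 and Scap lay at −0.13 and −0.23. Fatty acid genes were mixed in that library, with Fasn at −0.36 and Scd1 at 0.47. In RvD1 replicate 1, proliferation markers were also low, and fibro-adipogenic and Schwann cell markers high. Among the other libraries, the proliferation sum was highest in RvD1 replicate 3 (1731 TPM), where the enzymes were highest. It was 1547, 1535, and 1639 TPM in vehicle replicates 1, 2, and 3, and 1577 TPM in RvD1 replicate 2. Enzymes above their mean in those libraries numbered 16, 4, 12, and 4 of 17, so the 2 orders differed. The fibro-adipogenic sum was next highest in RvD1 replicate 3 too (553 TPM). The Schwann cell sum was next highest in vehicle replicate 1 (94.6 TPM), where 16 of 17 enzymes lay above their mean. The part of these markers in the pattern was not tested. Without RvD1 replicate 1, 8 of the 28 log2 fold changes turned sign. Those of Fdps, Fdft1, Sqle, Lss, Srebf2, and Fasn became positive, at 0.023, 0.027, 0.036, 0.14, 0.049, and 0.088, and those of Srebf1 and Insig2 became negative, at −0.023 and −0.070. The median of the 28 was then 0.010, and Acly and Acaca had unadjusted p values under 0.05 (edgeR unadjusted p = 0.0406 and 0.0421, both with adjusted p = 0.967).

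**Figure D4:**
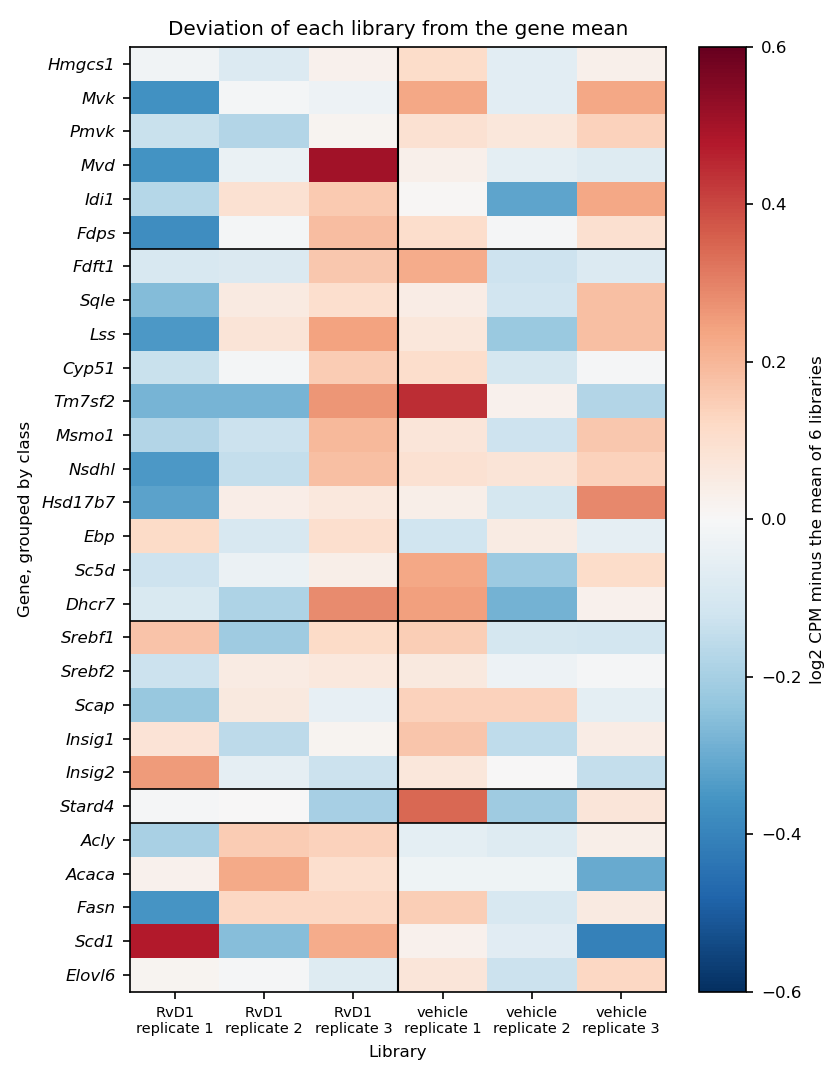
Deviation of each library from the gene's mean over the 6 libraries, in TMM-normalized log2 CPM, with red above and blue below the mean and black lines between classes and groups. In the 2 upper classes RvD1 replicate 1 is blue for 16 of 17 genes, and RvD1 replicate 3 is red for 16 of 17.

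A further 24 genes that supply, branch from, or dispose of these products were read from the same fit, 12 with a positive and 12 with a negative log2 fold change. Of these, 0 had an adjusted p and 0 an unadjusted p under 0.05 in edgeR, the groups overlapped for each of the 24, and the median log2 fold change was 0.015. The smallest unadjusted p values were those of Acacb, Mbtps1, and Abca1. Acacb, the mitochondrial counterpart of Acaca, was at 3.36, 1.35, and 0.86 TPM with RvD1 and 1.91, 1.17, and 0.82 TPM with vehicle. Its log2 fold change of 0.79 (standard error 0.43, edgeR unadjusted p = 0.0969, adjusted p = 0.971) was 0.28 without RvD1 replicate 1. Mbtps1, the site-1 protease that cleaves SREBPs, was at 68.8, 57.9, and 73.4 TPM with RvD1 and 59.2, 53.0, and 52.6 TPM with vehicle. Its log2 fold change was 0.18 (standard error 0.096, edgeR unadjusted p = 0.1, adjusted p = 0.971) and fell to 0.11 without RvD1 replicate 3. Abca1, which exports cholesterol, was at 5.69, 1.52, and 1.37 TPM with RvD1 and 1.94, 1.47, and 0.84 TPM with vehicle. Its log2 fold change of 0.91 (standard error 0.54, edgeR unadjusted p = 0.128, adjusted p = 0.971) became −0.079 without RvD1 replicate 1, so the positive value rested on that mouse. In that library the other exporter Abcg1 (2.49 TPM, against 0.65 to 1.58 TPM elsewhere), the ubiquitin ligase Mylip (8.22 TPM, against 3.58 to 5.22 TPM), and the lysosomal lipase Lipa (12.4 to 17.2 TPM in the other libraries) were also highest, and Tmem97, a sterol-regulated membrane protein, was lowest (89.7 TPM, against 108 to 135 TPM). Acss2 and Scd2 were highest there as well, and Scarb1 was lowest. In log2 CPM, RvD1 replicate 1 held the highest level of 8 of the 24 and the lowest of 9. Of all genes tested, 30.6% were highest and 29.5% lowest there. The oxysterol receptors Nr1h2 and Nr1h3 had log2 fold changes of 0.18 (standard error 0.14) and 0.090 (standard error 0.40).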

How the data were processed

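The authors aligned 76-bp single-ended reads to mm10 with STAR 2.5.0a and quantified genes with RSEM, and the annotation release is not given in the sources used here. The deposited expected counts are not scaled for depth. The authors' TPM and FPKM columns, also deposited, divide by effective transcript length and library size. Expected counts were rounded and tested with edgeR 4.0.16 in R 4.3.3 (TMM, filterByExpr by group, quasi-likelihood test without robust estimation, Benjamini-Hochberg adjustment over 14494 genes, threshold 0.05). Standard errors are the log2 fold change over the root of the F statistic. The 95% intervals use the test's total degrees of freedom, which are the residual ones plus those borrowed across genes. CPM are TMM-normalized, and deviations use log2 CPM with a prior count of 2. Implied effective length is the count divided by FPKM and total count, for genes with at least 50 counts and 1 FPKM in every library. In the totals, 3 counts correspond to 0.107 to 0.186 CPM, which covers counting error only. 1 stray header row was removed. Of 61 cell type markers, 60 were found. Alternatives were DESeq2 1.42.0, limma 3.58.1, limma-voom after removal of surrogate variables (sva 3.50.0) as in the study's methods, other scalings and filters, TPM and FPKM with pseudocounts, a replicate block, and each library left out. In counts simulated for this comparison with 200 genes changed 4-fold, edgeR recovered 190 with 10 false calls among 14253 genes. Positions are from GENCODE M21 (GRCm38, the mm10 build). The genes and lists were chosen with earlier results of these data known. Values in every library were given for the SREBP control genes, genes whose groups do not overlap, the 3 smallest p values in each direction, the 2 highest and 2 lowest genes, and Fasn, Sqle, and Scd1. Hmgcs1, Mvd, Stard4, Dhcr7, Scd2, Abcg1, Mylip, Lipa, Tmem97, Acss2, Scarb1, Nr1h2, and Nr1h3 were added after their values were seen.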

Additional observations from a re-analysis of the deposited data

How the results depend on the processing

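The number of the 28 genes with an adjusted p under 0.05 was 0 under each of the 20 alternatives, with a smallest adjusted p of 0.383 (limma-voom after removal of 1 surrogate variable), and the number among the 24 related genes was also 0 under each. Over all genes tested, the number was 0 in edgeR and rose to 12 without a filter on low counts, none of them among the 28. With 1 replicate left out it was 0 to 1. The median log2 fold change of the 28 genes ranged from −0.12 (without RvD1 replicate 3) to 0.040 (log2(TPM + 0.1)), always within 1 SD (0.0914, of the list's median among the vehicle libraries) of the edgeR value of −0.046. Of 560 values for single genes, 30 moved by more than the standard error and 78 changed sign, none of them called. The sign was the same under all 20 alternatives for 11 genes, and differed under at least 1 for 17. With the replicate number as a block, the counts were also 0 and the median was −0.043. Deviations of same-numbered libraries correlated across genes at 0.31, −0.00071, and 0.126 for replicates 1, 2, and 3. The value for replicate 1 was the highest of any RvD1 and vehicle pair, and RvD1 replicate 2 with vehicle replicate 3 was next at 0.173. These values cannot settle whether the mice were paired, and the numbers were not taken to pair them. Tm7sf2, at 44 to 62 counts per library, has the least precise value of the 28.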
